A study of Mus musculus with 4 samples.

Results

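Rhox5, Tfap2c, Plet1, Hmga2, Nlrp4e, Peg10, Tead4 and Elf5 are 8 of the 32285 genes listed in the single-cell count matrices of DLA tumors, and all 8 symbols were found there. They were chosen by measured values, since keratin-positive tumor cells of these libraries held some of them at a higher level than immune cells, so the contrast of tumor with immune cells is described here and was not tested. The study asked how a mouse tumor responds to SP11, an inhibitor of the chaperone HSP90. DLA (Dalton's lymphoma ascites) is a transplantable mouse tumor kept as a cell line, and the mice were Swiss albino animals that received DLA cells by intraperitoneal injection. The control group comprised 2 libraries, which the labels call untreated and a supplement calls vehicle controls. The treated group comprised 2 libraries, from mice dosed by mouth with 30 mg/kg of SP11 over 17 days. No library is of a normal tissue or of DLA cells outside a mouse, and how many animals each library came from is not given in the sources used here. Apart from SP11, no genotype or agent differs between the groups in the labels.

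The 8 genes are known from early development, the placenta and the germ line. Trophoblast, the outer lineage of the embryo that builds the placenta, is set up by transcription factors that act on each other. Tead4 is the DNA-binding partner of YAP in the Hippo pathway and is needed to start the lineage. Tfap2c (AP-2 gamma) and Elf5, an ETS-family factor, maintain trophoblast stem cells. Plet1 is a surface protein of trophoblast progenitors and of some epithelial progenitors. Peg10 is a paternally expressed imprinted gene derived from a retrotransposon and is required for placental growth. Rhox5 (also called Pem) is an X-linked homeobox gene of placenta, testis and epididymis that many mouse tumor lines express. Hmga2 is a chromatin protein of fetal tissue that is silenced in most adult tissue and returns in many tumors. Nlrp4e belongs to a family of NLR genes with expression in oocytes. None of the 8 is a defining gene of adult lymphocytes.

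Each library was a 10x Genomics droplet library, in which every captured transcript is tagged near its 3′ end with a cell barcode and a unique molecular identifier (UMI), so that UMIs count molecules. The libraries held 9646197 to 13632163 UMIs on 595 to 2277 barcodes. Cells with at least 200 genes and at most 10% mitochondrial UMIs were kept, 4404 in all. Of these, 3211 held at least 5 UMIs of Krt8 and Krt18 together, the keratins of simple epithelium, and were taken as tumor cells. There were 845 and 528 in Controls 1 and 2, and 1256 and 582 in Treated 1 and 2. Immune cells were those with at least 2 UMIs over 14 immune genes and at most 1 keratin UMI. They numbered 40, 18, 396 and 388 in the same order. Cells near the keratin limit were few, with 2 to 39 tumor cells per library at 5 or 6 UMIs and 8 to 37 other cells at 3 or 4. Of the 5332 barcodes, 4353 were distinct, and 30.0% to 42.2% of the barcodes of a library also occurred in another library. Over all barcodes, the first 8 bases took 192 forms and the last 8 bases took 192 forms. How much overlap such a limited set of barcodes gives by itself was not tested, nor was the part of shared barcodes in the results.

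The label of these cells is lymphoma. In the tumor cells, 6 of 7 further epithelial genes were detected in every library, at a summed level of 1739 to 2759 CPM (UMIs of a gene per 1000000 UMIs of the summed cells), with Cldn7 at 0. A set of 8 lymphocyte genes (Ptprc, Cd79a, Cd79b, Cd3d, Cd3e, Cd3g, Cd4 and Cd8a) summed to 2.07 and 1.58 CPM in the control tumor cells, with Cd79b and Cd8a at 0 in both. The same genes reached 53.6 and 30.7 CPM in the treated tumor cells, beside 3766 and 3905 CPM in the immune cells of those libraries. Immune cells were chosen by UMIs of immune genes, so their level of lymphocyte genes is not independent of that choice. The tumor cells are called keratin-positive tumor cells here, after the rule that chose them. One gene of the lymphocyte list is left out of these sums. Endothelial genes (Pecam1, Cdh5 and Kdr) summed to 0.106 to 1.87 CPM in tumor cells, and fibroblast genes (Col1a1, Col1a2 and Dcn) to 0.0824 to 0.163 CPM. The label is not judged from any of these genes. Markers of giant and syncytial trophoblast (Prl3d1, Tpbpa, Syna, Synb and Gcm1) gave 0 UMIs in the tumor cells of 3 libraries, and Synb alone was detected in Treated 1, at 0.0814 CPM. Prl2c2, a prolactin-family gene of giant trophoblast on the wider placental list, was detected in all 4, at 5.39 to 8.76 CPM.

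The genes fell into 3 sets by their presence in tumor cells. Rhox5, Hmga2, Nlrp4e, Plet1 and Tead4 were detected in 26.9% or more of the tumor cells of every library. Tfap2c was detected in 4.22% to 10.8% of them. These shares are at full depth, which differed between libraries (median 8892 UMIs per tumor cell in Treated 1 and 19843 in Treated 2). With each cell thinned to 5000 UMIs, Tfap2c was detected in 2.26% to 2.74% of tumor cells and Tead4 in 9.98% to 20.2%. Elf5 gave 1 UMI in all 5332 barcodes, in a Control 2 tumor cell, and Peg10 gave 0 UMIs in any barcode, which allows up to 0.0645 CPM over all libraries. Levels in CPM are compared across cells of the same gene and not between genes, since 3′ tags do not give a level per length.

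Rhox5 was the member detected in most tumor cells. Its level was 944 and 880 CPM in Controls 1 and 2, beside 876 and 821 CPM in Treated 1 and 2, and 99.5%, 99.8%, 98.1% and 99.3% of the tumor cells held a UMI. In cells thinned to 5000 UMIs each, so that depth was equal, the shares were 98.5%, 97.8%, 97.0% and 96.2%, and the median cell held 5 UMIs in Control 1 and 4 in the others. The variance of Rhox5 counts among thinned cells was 1.41 to 1.67 times the mean, so cells varied more than counting alone would give, but almost no tumor cell lacked the transcript. The other Rhox genes on the list gave few or no UMIs in tumor cells. Rhox1, Rhox2a and Rhox9 gave 0, Rhox4b gave 3 and Rhox6 gave 5, where Rhox5 gave 38176.

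Hmga2 was at 168 and 164 CPM in Controls 1 and 2, and at 182 and 225 CPM in Treated 1 and 2. Thinned to 5000 UMIs, 53.1%, 53.6%, 53.2% and 63.3% of the tumor cells held it. Treated 2 was the highest library and the other libraries lay close together. Lin28a and Lin28b, RNA-binding proteins that block the let-7 microRNAs which repress Hmga2, gave 0 and 6 UMIs in tumor cells. Igf2bp2, an mRNA-binding protein of the fetal group, was at 58.1 to 74.5 CPM, and Afp, the fetal serum protein alpha-fetoprotein, was at 39.4 to 45.1. Of 15 oncofetal genes, 14 gave at least 1 UMI in tumor cells and 7 exceeded 5 CPM in every library. Of all 32285 genes, 19705 gave at least 1 UMI in tumor cells, and the share over 5 CPM is not given here.

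The level of Plet1 was 109 and 108 CPM in the control libraries, 117 CPM in Treated 1 and 160 CPM in Treated 2. The thinned shares were 40.4%, 38.0%, 39.0% and 48.2%. As for Hmga2, Treated 2 stood above the other libraries. Plet1 counts were also most uneven among cells in Treated 2, where the variance of thinned counts was 1.49 times the mean, against 1.12 and 1.09 in the controls and 1.30 in Treated 1.

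Tead4 was at 31.6 CPM in Control 1 but 21.8 CPM in Control 2, with 33.8 and 35.9 CPM in the treated libraries. Thinned shares were 16.5%, 9.98%, 14.1% and 20.2%, lowest in Control 2. The paralog Tead1 was detected at 53.9 to 82.9 CPM and Tead2 at 9.85 to 13.2, while Tead3 was at most 1.63. The cofactors Yap1 and Wwtr1 were present at 10.6 to 16.3 and 26.95 to 32.98 CPM. Of the 18 Hippo genes in the files, only Vgll1 and Vgll3 gave 0 UMIs in tumor cells.

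Tfap2c was scarce, at 4.98 CPM in Control 1, 4.64 CPM in Control 2, 4.48 CPM in Treated 1 and 5.52 CPM in Treated 2, from 48, 44, 55 and 67 UMIs. The exact Poisson 95% intervals of the 4 libraries overlapped, from 3.37 to 6.23 CPM in Control 2 and from 4.28 to 7.01 CPM in Treated 2. Tfap2a, a paralog, was at 16.8, 18.1, 22.1 and 23.8 CPM. Other trophoblast regulators were also present. Eomes, a T-box factor of trophoblast stem cells, was at 22.8 to 27.04 CPM, and Cdx2, the homeobox factor of the lineage, at 8.86 to 10.6. Klf5 was at 68.5 to 95.7 and Bmp4 at 31.2 to 40.0. Sox2, Hand1, Ascl2 and Gcm1 gave 0 UMIs in tumor cells, and Esrrb gave 3. Of 23 trophoblast regulators, 9 exceeded 5 CPM in every library, a count with no share of all genes beside it.

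Peg10 was absent at this depth together with other genes of its class. Sgce, which shares its start region with Peg10 on chromosome 6, gave 0 UMIs in tumor cells, as did the imprinted genes Peg3, Rtl1, Igf2, H19, Dlk1, Grb10 and Plagl1. Of 30 placental and imprinted genes, 16 gave 0 UMIs there. Many genes outside the list were absent too, since 19705 of all 32285 genes gave at least 1 UMI in tumor cells. Among the imprinted genes that were present, Phlda2 was at 32.1 to 47.1 CPM and Cdkn1c at 10.2 to 13.2, and both are maternally expressed growth inhibitors of the placenta. Among the germline genes, Tex19.1 was at 42.8 to 47.6 and Dppa4 at 27.8 to 30.3 CPM, while Dazl and Ddx4 gave 0 UMIs.

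Immune cells of the same libraries held few UMIs of any member. In Treated 1, Rhox5 was at 68.5 CPM in immune cells, from 28 UMIs, which is 7.82% of the level in tumor cells (exact Poisson 95% interval 5.19% to 11.3%, counting error only). In Treated 2 it was at 65.9, from 41 UMIs, or 8.02% of the tumor level (5.76% to 10.9%). Over Rhox5, Hmga2, Nlrp4e, Plet1 and Tead4 in the treated libraries, the immune level was 4.99% to 16.03% of the tumor level. The lowest value came from 7 Hmga2 UMIs in Treated 2 (2.01% to 10.3%). The highest came from 8 Nlrp4e UMIs in Treated 1 (6.92% to 31.6%). In the same cells the epithelial genes Krt7, Krt19 and Epcam were at 5.79% to 10.4% of their tumor level, and in barcodes with fewer than 200 genes the members were at 3.05% to 15.1%. The 15.1% came from 2 Tead4 UMIs in Treated 1 (1.83% to 54.5%). The ranges for the members and for these epithelial genes in immune cells thus overlapped, but at such counts the overlap says little. The barcodes under 200 genes were not empty, with 392815 UMIs on 433 barcodes in Treated 1 and 582278 on 380 in Treated 2, so they do not measure free RNA alone. In cells thinned to 500 UMIs, 35.0% of tumor cells and 2.53% of immune cells in Treated 1 held a Rhox5 UMI, against 30.1% and 3.87% in Treated 2. Without thinning, the immune shares were 6.57% and 9.79%, at median depths of 884 and 1321 UMIs for immune cells and 8892 and 19843 for tumor cells. B-gated, myeloid-gated and erythroid cells of the treated libraries held Rhox5 at 33.2 to 103 CPM. T-gated cells held it at 189 CPM in Treated 1, from 1 UMI, and at 85.2 CPM in Treated 2. The control libraries have 40 and 18 immune cells, with 7 and 2 Rhox5 UMIs, and do not give a usable level. Tfap2c gave 1 UMI in all immune cells, and whether its low level differs between the classes was not detectable at this depth. Summed over libraries, 97.7% to 99.05% of the UMIs of the 6 members other than Peg10 and Elf5 lay in tumor cells, which held 93.6% of all UMIs.

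**Figure D1:**
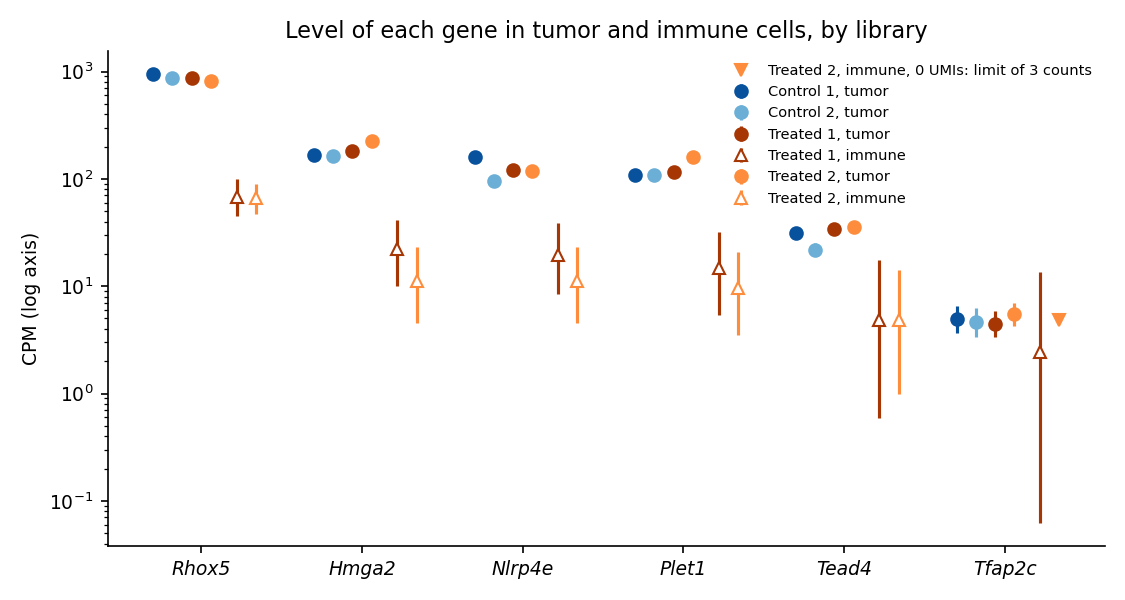
CPM (log axis) of 6 genes in tumor cells of each library (filled circles, blue for control and orange for treated) and in immune cells of the treated libraries (open triangles), with exact Poisson 95% intervals. For Rhox5 the tumor level is 821 to 944 and the immune level 65.9 and 68.5; for Tfap2c the immune intervals reach the tumor level, and the filled triangle marks the limit of 3 counts in Treated 2.

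The comparison of treated with control tumor cells asks whether SP11 changed these genes. Summed UMIs of the tumor cells, 1 sum per library, were tested with edgeR's quasi-likelihood test over 11588 genes. None of the 6 members tested was called at an adjusted p under 0.05, where 2.31% of all genes were called (210 or 1.81% higher, 58 or 0.501% lower). At an unadjusted p under 0.05 the members called were also 0, against 1691 of all genes. Peg10 and Elf5 had too few UMIs to be tested. With 2 libraries in each group the intervals are wide, and the p-values measure only the spread between these libraries.

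Rhox5 had a mean of 912 ± 45.6 CPM (SD, n = 2) in control and 849 ± 38.9 in treated tumor cells. Its log2 fold change was -0.23 (SE 0.14, edgeR adjusted p = 0.478), and the 95% interval ran from -0.52 to 0.07. It was -0.33 without Treated 1 and -0.13 without Treated 2. Both treated libraries lay below both controls, by a narrow margin between Treated 1 and Control 2.

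Hmga2 averaged 166 ± 2.96 CPM in control and 204 ± 30.5 in treated tumor cells (SD, n = 2). The log2 fold change was 0.16 (SE 0.13, edgeR adjusted p = 0.582). Plet1 averaged 109 ± 0.421 and 138 ± 30.6, with a log2 fold change of 0.21 (SE 0.13, edgeR adjusted p = 0.484). For both genes the treated libraries lay above the controls without overlap, but most of the gap came from Treated 2. Without Treated 2 the log2 fold changes of Hmga2 and Plet1 were 0.06 and 0.03, and without Treated 1 they were 0.26 and 0.38.

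Tead4 averaged 26.7 ± 6.91 CPM in control and 34.9 ± 1.53 in treated tumor cells (SD, n = 2), a log2 fold change of 0.25 (SE 0.16, edgeR adjusted p = 0.501). It was 0.57 without Control 1 and -0.01 without Control 2. Nlrp4e averaged 128 ± 46.1 and 121 ± 1.91, a log2 fold change of -0.22 (SE 0.18, edgeR adjusted p = 0.631). The controls of Nlrp4e enclosed both treated libraries, and the value was 0.23 without Control 1 and -0.56 without Control 2. Tfap2c had a log2 fold change of -0.07 (SE 0.23, edgeR adjusted p = 0.916).

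Ranges that do not overlap carry little weight here. The levels of 4 members did not overlap between the groups (Plet1, Hmga2 and Tead4 higher, Rhox5 lower), and neither did those of 44.9% of all tested genes. In plain CPM the median tested gene was 0.12 higher in treated cells on the log2 scale, and 36.8% of genes were higher without overlap against 8.12% lower. The TMM scaling of the fit, which sets library sizes so that most genes do not move, removed this shift, leaving a median of -0.00388. Fold changes above are relative to it. In plain CPM the log2 difference of Tfap2c was 0.06, of opposite sign to the fit, and the other 5 kept their sign. Tumor barcodes of the treated libraries also held more transcripts of other cells. Hemoglobin genes were at 10605 and 4735 CPM in them, against 267 and 178 in the controls, and at least 2 immune UMIs were found in 27.5% and 31.6% of them, against 4.02% and 8.33%. Without the cells that held immune UMIs, no member was called, and the log2 fold changes of Rhox5, Hmga2 and Plet1 were -0.21, 0.19 and 0.26.

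**Figure D2:**
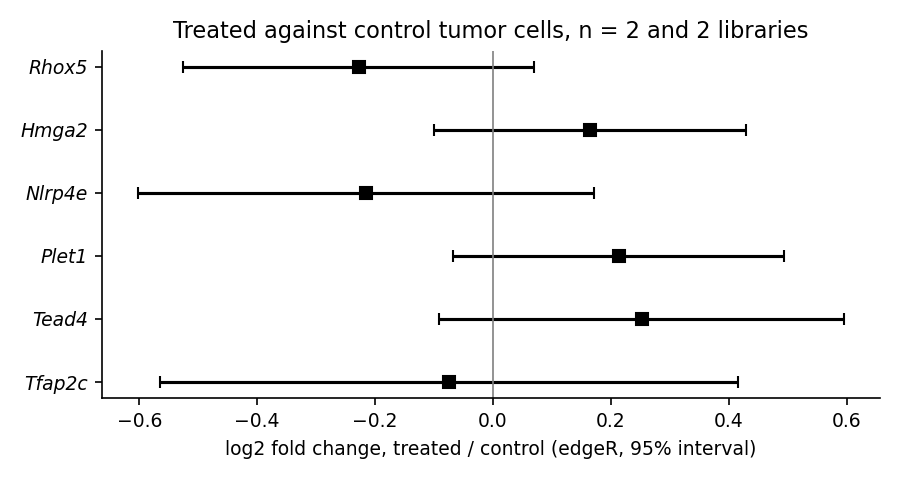
Log2 fold change of 6 genes between treated and control tumor cells from the edgeR fit, with 95% intervals, from 2 libraries in each group. Every interval includes 0, from Rhox5 at -0.23 to Tead4 at 0.25.

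The wider lists were read against the 2.31% of all genes that were called. Of the genes tested, 0 of 15 trophoblast regulators, 0 of 9 oncofetal genes and 0 of 7 germline genes were called in either direction, counts too small to set the lists apart from that share. Among 8 placental and imprinted genes 1 was higher in treated cells, Plac8, with a log2 fold change of 1.42 (SE 0.29, edgeR adjusted p = 0.0123). Plac8 is also expressed in myeloid and lymphoid cells, and its level was 2.49 and 1.58 CPM in controls and 6.35 and 5.61 in treated tumor cells. Among 15 Hippo genes 1 was higher, the receptor tyrosine kinase Axl, a target of YAP and TEAD, at 22.9 and 25.7 CPM in controls and 34.9 and 47.3 in treated cells (log2 fold change 0.62, SE 0.14, edgeR adjusted p = 0.0270). Without tumor cells holding immune UMIs, the log2 fold change of Plac8 was -0.15 (edgeR adjusted p = 0.941) and that of Axl was 0.66 (edgeR adjusted p = 0.0176). Without Control 1, Control 2 or Treated 2 the call of Axl was lost, with edgeR adjusted p-values of 0.182, 0.147 and 0.197, and that of Plac8 without Control 2 (0.171), while DESeq2 called neither. Without called doublets both calls were lost (edgeR adjusted p of Axl 0.0520, and of Plac8 0.480 with a log2 fold change of 0.77). They were also lost with cells thinned to 5000 UMIs (0.0590 and 0.124). The log2 fold change of Axl was 0.62 without called doublets and 0.78 with thinned cells. With no filter on low counts the edgeR adjusted p of Axl was 0.0521. The medians of the lists were 0.08, -0.11, -0.12, -0.12 and 0.17 for trophoblast, oncofetal, germline, placental and Hippo genes.

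Within tumor cells the members were next compared by cell division. Each tumor cell was thinned to 5000 UMIs, and cells at or above the 75th percentile of summed UMIs over 18 mitotic genes (Mki67, Top2a, Cenpf and others) were set against those at or below the 25th percentile in the same library. No member is on that list. The library was a block in the edgeR fit over 7527 genes. Of the 5 members tested 4 were called, Hmga2 higher and Plet1, Nlrp4e and Rhox5 lower in mitotic-high cells, where 14.3% of all genes were called (6.94% higher and 7.35% lower). Tfap2c, Elf5 and Peg10 had too few UMIs for this test.

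Plet1 had the largest fitted drop of the 5 members tested at 5000 UMIs, while at 3000 UMIs Nlrp4e had a larger one (-0.59 against -0.44 for Plet1). From mitotic-low to mitotic-high cells it went from 107.8 to 88.9 CPM in Control 1 and from 110.1 to 95.2 in Control 2. The step was from 136 to 89.7 CPM for Treated 1 and from 205 to 109.6 for Treated 2. All 4 libraries moved down, and the mitotic-high cells of the 4 libraries lay closer together than the mitotic-low cells. The fitted log2 fold change was -0.61 (SE 0.10, edgeR adjusted p = 2.97e-05). The drop was larger in the treated libraries, at -0.60 and -0.90 on the log2 scale of plain levels, than in the controls, at -0.28 and -0.21. An interaction term, added after these values were seen, put the difference at -0.48 (SE 0.19), with an unadjusted p of 0.0251 and an edgeR adjusted p of 0.990 over all genes. It therefore did not pass the correction, and 0 genes did, against 318 at an unadjusted p under 0.05. With a library left out, the difference for Plet1 ranged from -0.63 (without Treated 1) to -0.37 (without Treated 2).

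Hmga2 moved the other way. It went from 139 to 181 CPM in Control 1, from 139.5 to 181 in Control 2, from 137 to 196 for Treated 1 and from 190.3 to 237 for Treated 2, up in all 4 libraries. The fitted log2 fold change was 0.34 (SE 0.08, edgeR adjusted p = 0.00170), and without Treated 1 the edgeR adjusted p was 0.0544. Nlrp4e went from 189 to 162, 121 to 88.3, 144 to 103 and 138 to 112 in the same order of libraries, with a log2 fold change of -0.43 (SE 0.09, edgeR adjusted p = 0.000660). Rhox5 fell less. It went from 992 to 920, 943 to 883, 870.4 to 866 and 870.3 to 808, with almost no difference in Treated 1, and its log2 fold change was -0.14 (SE 0.04, edgeR adjusted p = 0.0111). Without Control 1 the edgeR adjusted p of Rhox5 was 0.0998. Tead4 was lower in mitotic-high cells of all 4 libraries but was not called (log2 fold change -0.35, SE 0.17, edgeR adjusted p = 0.177). Being lower in all 4 libraries was seen for 10.6% of tested genes, and being higher for 20.8%.

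DESeq2 called Plet1 alone of the members in this comparison (adjusted p = 0.0208), as did edgeR without the library block (adjusted p = 0.0174). Mitotic-high cells had more UMIs before thinning, with medians of 14000, 22006, 11197 and 25031 over the controls and then the treated libraries, against 9328, 14877, 7670 and 17456 in mitotic-low cells. The 14 immune genes were lower in them, at 17.4, 23.4, 164 and 89.0 CPM against 41.1, 55.8, 219 and 156. The part of both in these calls was not tested. Keratins were lower in mitotic-high cells too, with log2 fold changes of -0.39 for Krt8, -0.38 for Krt18, -0.31 for Krt7 and -0.44 for Krt19, all called. Krt8 and Krt18 chose the tumor cells, so their values here are not independent of that choice and are given as a description. Without the library block none of the 4 keratins was called, with edgeR adjusted p-values of 0.146 to 0.377. Their log2 fold changes there were -0.30 (Krt7) to -0.44 (Krt19). DESeq2 called all 4, with adjusted p-values of at most 1.49e-07. The wider lists are given beside the 14.3% of all genes called. Of 8 trophoblast regulators tested 2 were called, Tfap2a (log2 fold change 0.81, SE 0.22, edgeR adjusted p = 0.00816) and Id2 (0.71, edgeR adjusted p = 0.00205), both higher. Of 7 oncofetal genes, Hmga2 was higher and Afp lower (-0.53, edgeR adjusted p = 0.0219). Of 11 Hippo genes 1 was called, Ankrd1 (-0.86, edgeR adjusted p = 5.94e-05), which was lower, while the list's median was -0.02 and Axl had a log2 fold change of 0.01. The called genes of the other lists were Plet1, Krt7 and Krt19 of 6 placental genes and Rhox5 and Nlrp4e of 5 germline genes, all lower.

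**Figure D3:**
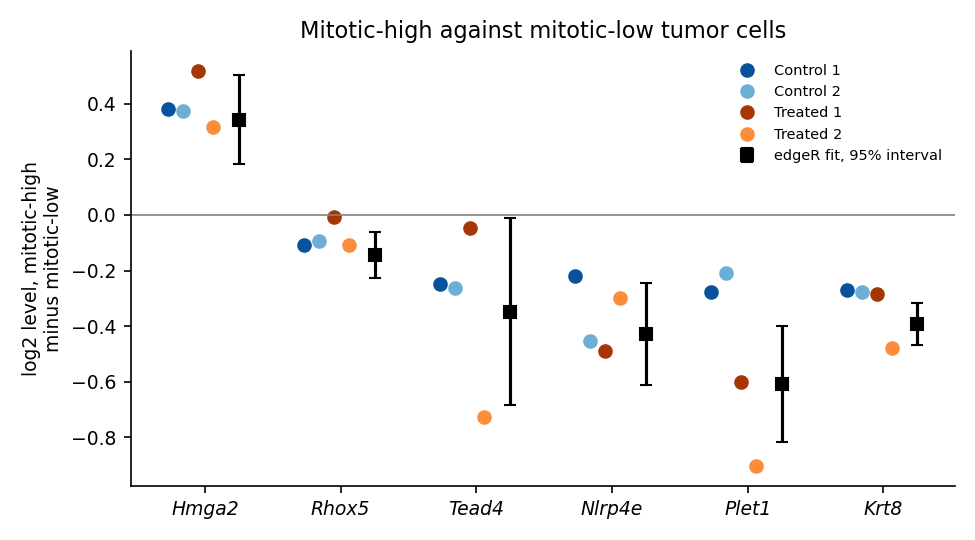
Log2 difference in level between mitotic-high and mitotic-low tumor cells, by library (circles, plain CPM) and from the edgeR fit with its 95% interval (squares). Hmga2 lies above 0 in all 4 libraries, and Plet1 and Nlrp4e lie below 0 in all 4, as does Krt8. Krt8 was part of the rule that chose these cells, so its values are not independent of that choice.

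The upstream sequences of the 3 called members with an unambiguous count, Rhox5, Plet1 and Hmga2, are shown because these genes differ in direction or size across the mitotic split. Each is the 250 bases before the RefSeq start on GRCm38.p6, read 5′ to 3′ on the strand of the gene, with CpG dinucleotides in capitals. Rhox5 is at chrX:37754358-37754607 on the plus strand, Plet1 at chr9:50494275-50494524 on the plus strand and Hmga2 at chr10:120476470-120476719 on the minus strand.
Rhox5: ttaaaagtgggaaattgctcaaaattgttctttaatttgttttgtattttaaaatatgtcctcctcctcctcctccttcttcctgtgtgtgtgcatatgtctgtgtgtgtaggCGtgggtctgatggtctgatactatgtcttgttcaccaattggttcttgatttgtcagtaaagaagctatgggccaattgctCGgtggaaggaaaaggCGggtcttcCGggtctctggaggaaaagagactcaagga
Plet1: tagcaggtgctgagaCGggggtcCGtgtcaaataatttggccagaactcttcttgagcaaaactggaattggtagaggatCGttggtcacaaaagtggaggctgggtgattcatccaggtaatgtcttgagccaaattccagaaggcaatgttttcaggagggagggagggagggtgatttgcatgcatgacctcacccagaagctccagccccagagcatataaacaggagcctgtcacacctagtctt
Hmga2: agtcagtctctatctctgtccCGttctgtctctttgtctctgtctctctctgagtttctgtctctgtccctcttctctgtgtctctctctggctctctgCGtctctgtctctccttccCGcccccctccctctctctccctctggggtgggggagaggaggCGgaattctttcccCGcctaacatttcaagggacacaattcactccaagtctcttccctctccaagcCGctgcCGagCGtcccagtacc
In windows from 250 bases before to 50 after the start, Rhox5, Plet1 and Hmga2 had GC contents of 43.7%, 52.3% and 57.7%, beside a median of 52.7% over 32851 mouse promoters. The printed stretches held 4, 3 and 8 CpG dinucleotides. The TATAAA box, read on the strand of the gene, occurred in the Plet1 window and not in those of Rhox5 and Hmga2, and in 8.32% of all promoter windows. The AP-2 motif GCCNNNGGC, which is its own reverse complement, was in none of the 3 windows and in 16.6% of all. The TEAD motif CATTCC, on either strand (GGAATG on the other), was also in none of the 3 and in 14.7% of all. Of the other matched members, Nlrp4e and 1 of 2 Elf5 windows held 1 TEAD match each, and neither held the AP-2 motif. RefSeq sequence was matched for 5 of the 8 members. These are descriptions of letters in a window. The printed Plet1 and Hmga2 stretches adjoin the GENCODE starts of their genes. The Rhox5 stretch does not, since it ends at chrX:37754607 and the GENCODE gene spans chrX:37804842-37808876. Whether the Rhox5 stretch serves the counted transcript was not tested.

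The count of Nlrp4e needs a limit. The GENCODE vM21 annotation of GRCm38 (mm10) places Nlrp4e at chr7:23301192-23362277 on the plus strand. Within its intron at chr7:23355278-23361840 lies Krt8-ps, a processed pseudogene of Krt8 of 945 bases at chr7:23357125-23358069, on the same strand. Krt8-ps is not among the genes counted. Over 941 aligned bases it differs from the Krt8 transcript at 13 positions, an identity of 98.6%, and the longest run without a difference is 299 bases. The aligned part covers positions 244 to 1184 of the 1958 bases of Krt8, which lie in its coding part (244 to 1716), and leaves the last 774 bases, nearest to the poly(A) tail, unmatched. The 120 bases with the most differences are shown. Within them, a read from Krt8 could be separated from the pseudogene only at the 6 bases in capitals. The stretch is positions 1044 to 1163 of the Krt8 transcript and chr7:23357925-23358044 of the pseudogene.
Krt8: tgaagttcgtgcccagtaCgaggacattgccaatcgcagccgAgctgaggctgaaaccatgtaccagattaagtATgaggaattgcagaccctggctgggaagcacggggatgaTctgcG
Krt8-ps: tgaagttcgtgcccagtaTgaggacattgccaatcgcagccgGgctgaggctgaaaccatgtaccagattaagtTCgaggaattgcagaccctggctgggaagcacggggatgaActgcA
Whether reads from introns were counted, and so whether reads of this stretch could be counted as Nlrp4e, is not given in the sources used here.

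Krt8 was the gene most correlated with Nlrp4e from cell to cell. Across thinned tumor cells, the Pearson correlation of Nlrp4e with Krt8 on the log2(UMIs + 1) scale was 0.26 for Control 1, 0.15 for Control 2, 0.28 for Treated 1 and 0.24 for Treated 2. Krt8 had the highest mean correlation with Nlrp4e of 4065 genes, followed by Krt18 (mean 0.21) and Krt7 (0.12). For comparison, Krt8 with Krt18 gave 0.46, 0.34, 0.49 and 0.54. Krt8 with Krt7 gave 0.22 to 0.29 and Krt8 with Krt19 0.18 to 0.36, so the keratins had higher means with Krt8 than Nlrp4e had. In Control 1, however, Nlrp4e (0.26) was above Krt7 (0.22) and Krt19 (0.18). Of the other members, Rhox5 gave 0.05 to 0.15, with its highest value in Control 2 close to that of Nlrp4e there. Plet1 gave 0.07 to 0.11, Hmga2 -0.03 to 0.01 and Tead4 -0.04 to 0.04. In cells with 0 to 2 Krt8 UMIs, Nlrp4e averaged 0.543, 0.366, 0.345 and 0.303 UMIs in the 4 libraries. In cells with 13 or more it averaged 1.26 in Control 1, 1.37 in Treated 1 and 1.25 in Treated 2, while Control 2 had 6 such cells. Plet1 was also higher in the highest class, at 0.664, 0.753 and 1.23 UMIs in Control 1, Treated 1 and Treated 2 against 0.371, 0.518 and 0.674 in the lowest. Hmga2 averaged 0.886, 0.777 and 1.06 UMIs in the lowest class of Control 1, Treated 1 and Treated 2, and 0.811, 0.802 and 1.32 in the highest.

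Ratios to Krt8 were then compared across the 4 libraries. Per 100 Krt8 UMIs there were 9.50 and 12.02 Nlrp4e UMIs in Controls 1 and 2, and 9.85 and 9.44 in the treated libraries, a range of 1.27-fold. The ratio to Krt8 ranged 1.98-fold for Rhox5, 2.12-fold for Plet1, 2.08-fold for Hmga2 and 1.52-fold for Tead4. It ranged 1.17-fold for Krt19, 1.32-fold for Krt18 and 1.33-fold for Krt7, so the range of Nlrp4e lay among those of the keratins. Control 2, the library with the lowest Krt8 (794 CPM against 1239 to 1691), was also the lowest in Nlrp4e. It was the lowest in Tead4 too (21.8 CPM against 31.6 to 35.9). Between mitotic-high and mitotic-low cells the plain log2 differences of Nlrp4e were -0.22, -0.45, -0.49 and -0.30 in the 4 libraries and those of Krt8 -0.27, -0.28, -0.29 and -0.48, so the sizes did not run together by library. Reads shared with the pseudogene were not tested as a cause, since the files hold no reads, and Nlrp4e values are uncertain throughout. Krt8 also entered the choice of tumor cells, so its relation to Nlrp4e was not independent of that choice. Among the relatives, Nlrp4c was at 3.42 to 5.06 CPM, and Nlrp4a and Nlrp4b gave 0 UMIs.

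**Figure D4:**
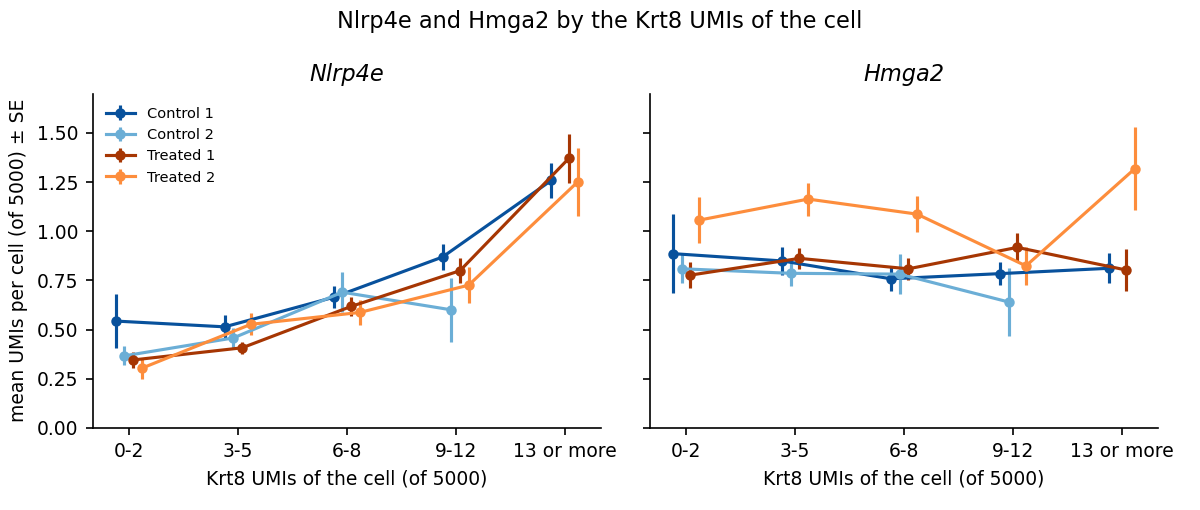
Mean UMIs per tumor cell of Nlrp4e (left) and Hmga2 (right) in cells thinned to 5000 UMIs, by the Krt8 UMIs of the cell and by library, with the SE over cells; classes with fewer than 20 cells are left out. Nlrp4e is highest in the class with 13 or more Krt8 UMIs, at 1.25 to 1.37 in the 3 libraries shown there.

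No other detected member overlaps a gene on its own strand that could take its UMIs, apart from the microRNA gene Mir763 in Hmga2. On the opposite strand, Plet1os spans Plet1 (chr9:50494525-50505482) and gave 7 to 15 UMIs in tumor cells per library, and 1700006J14Rik within Hmga2 (chr10:120361275-120476469) gave 3 to 6. Tfap2c lies at chr2:172549593-172558622, Tead4 at chr6:128224288-128300823, Elf5 at chr2:103411688-103450989 and Peg10 at chr6:4747306-4760517.

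Co-expression of the members within a cell was weak. Among the 5 members detected in at least 26.9% of tumor cells there are 10 pairs, and the Pearson correlations over the 4 libraries ranged from -0.11 to 0.10 with a median of 0.00634. Hmga2 and Tead4 gave both the lowest value and a positive one, 0.04, in another library. Counts of 0 to a few UMIs per cell limit such correlations, and the cells of a library share capture and depth. In Control 1, 36.9% of thinned tumor cells held 3 of the 5 genes and 15.1% held 4, against 36.7% and 15.3% from the product of the shares. In Treated 2 these values were 38.3% and 17.04%, against 37.8% and 17.6%. All 5 were held by 1.63% of cells for Control 1, 0.196% for Control 2, 1.39% for Treated 1 and 2.43% for Treated 2, against products of 1.83%, 0.681%, 1.22% and 2.52%. At 5000 UMIs the widest gap was at 3 genes in Treated 1, with 31.7% of cells against 34.05% from the product. At 3000 UMIs it was at 2 genes in Treated 1, with 36.8% against 41.3%. Tumor cells with none of the 5 numbered 3, 1, 9 and 1.

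**Figure D5:**
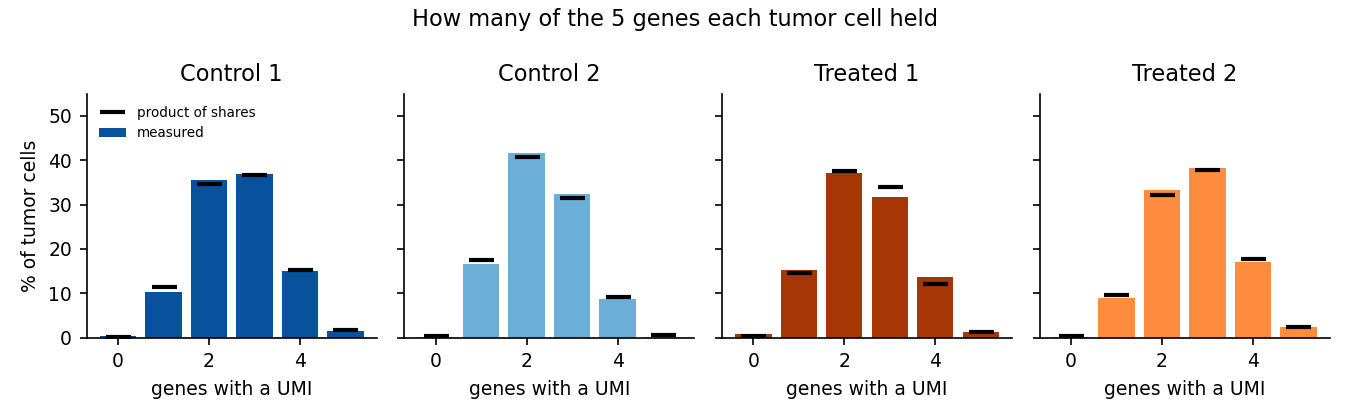
Percent of tumor cells, thinned to 5000 UMIs, that held a UMI of 0 to 5 of the genes Rhox5, Hmga2, Plet1, Nlrp4e and Tead4 (bars), by library, and the percent given by the product of the single shares (black marks). Bars and marks lie close together, as at 3 genes in Control 1 with 36.9% and 36.7%.

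The genes most like each member differed from member to member. For Rhox5 they were Wfdc2 (mean correlation over the 4 libraries 0.16), Ly6a (0.15) and S100a6 (0.14), where 99% of the 4065 genes compared lay below 0.0561. For Hmga2 they were Smc1a (0.14), a cohesin subunit, Anln (0.12), which acts in cytokinesis, and Top2a (0.12), a topoisomerase on the mitotic list. For Plet1 they were Cnfn (0.14), a cornified envelope gene, Hbegf (0.10), an EGF-family ligand, and Myo10 (0.09). Among the most opposed genes, Ube2s and Cenpa, which act in mitosis, stood against Plet1 at -0.13 and -0.11. Tead4 was below the detection limit set for this ranking, a UMI in 20% of thinned cells of every library. With cells thinned to 3000 UMIs the first gene remained Cnfn for Plet1 and Krt8 for Nlrp4e, while for Rhox5 it was S100a6 and for Hmga2 Runx1. These correlations are descriptions across cells that share a library.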

How the data were processed

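Libraries were made on the 10x Genomics 3′ platform from digested tumors after lysis of red cells. The deposited values are whole UMI counts in gene-by-barcode matrices, written by Cell Ranger 7.1.0 per the file headers, and the submitters' processing notes name mm10. The counts were not normalized, and whether intronic reads were included is not given in the sources used here. The members, lists and gates were chosen with earlier results of these data known. Genes named are the 8 members, up to 3 called genes per list and the 3 most like genes per member; other list members named to show levels were chosen after their values were seen. UMIs were summed per library and cell class and tested with edgeR 4.0.16 (R 4.3.3; TMM, filterByExpr, quasi-likelihood, Benjamini-Hochberg adjustment over all genes, threshold 0.05). The step was tested on simulated data. Alternatives were DESeq2 1.42.0, other gates, filters, thinning and splits, a replicate block, and each library left out. Levels are CPM, counts scaled to 1000000 UMIs. Intervals are exact Poisson or Clopper-Pearson at 95%, with 3 counts as the limit for 0, and cover counting error only. Shares at equal depth used cells thinned to 5000 or 500 UMIs, leaving out shallower tumor cells (46, 17, 105 and 7 at 5000). Doublets were kept. Scrublet's automatic limit called 88.9% of Control 1 cells and 0.0546% of Treated 1. The alternative without doublets therefore left out about the highest 5% of scores per library. The cells left out were 1.77% (Control 2) to 5.02% (Control 1) of kept cells. Positions came from GENCODE vM21 and promoters from RefSeq. One gene of the lymphocyte list is not reported here, and the list's sums leave it out.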

Additional observations from a re-analysis of the deposited data

How the results depend on the processing

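No member was called between treated and control tumor cells under any alternative tried, by edgeR or DESeq2. The count of all genes called there was 268. It was 134 with DESeq2, 422 with a keratin limit of 2 UMIs, 155 without tumor cells holding immune UMIs, 153 without called doublets, 94 with cells thinned to 5000 UMIs, and 78 to 425 with a library left out, lowest without Control 2 and highest without Treated 2. With the replicate number as a block it was 1038 genes. With 2 pairs the numbers could not be shown to pair the libraries. The log2 fold change of Tfap2c was -0.30 with cells thinned to 5000 UMIs and 0.087 without tumor cells holding immune UMIs. With a library left out that of Tfap2c was -0.18 to 0.021 (without Treated 1), that of Nlrp4e -0.56 to 0.23 and that of Tead4 -0.0084 to 0.57. The causes were not tested. Between mitotic-high and mitotic-low cells 1075 genes were called. The count was 654 with cells thinned to 3000 UMIs, 370 with DESeq2 and 308 without the library block. It was 652 to 918 with a library left out, lowest without Treated 1. Plet1 was called under all 8 alternatives tried there, a wider split of cells included. At 3000 UMIs the adjusted p of Rhox5 was 0.0517 by edgeR. The summed immune level of 5 members as a percent of the tumor level was 9.74% and 7.55% in Treated 1 and 2, and 10.7% and 6.31% with a stricter immune gate. In the controls, with few immune cells, it went from 10.1% to 13.6% and from 10.01% to 3.604%. Depth limits Tfap2c, Elf5 and Peg10.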
